A study of Mus musculus with 29 samples.

Results

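Intestinal differentiation genes, 9 of the 24421 genes in the deposited table, were followed in peritoneal tissue of mice carrying a gastric tumor: Gucy2c, Mgam, Stra6, S100g, Cdx1, Cdx2, Cdh17, Vil1 and Lgals4. They were picked by symbol with results of these data in view, since Gucy2c, Mgam, Stra6 and S100g stood among the genes most raised in tumor-bearing tissue over tissue from cured mice, with no stated cut-off. That contrast is therefore given below as a description without a test. Female C57BL/6J mice, 5 to 6 weeks old, received the mouse gastric cancer line YTN16 into the peritoneal cavity, and immune checkpoint inhibitors (ICI) or PBS were injected on day 5, again on days 8 and 12, and in the 5wk mice also on days 21 and 28. The antibodies were anti-PD1 at 10 mg/kg, anti-CTLA4 at 5 mg/kg, or both together (dual ICI), and untreated mice received PBS. The 29 libraries, 1 per mouse, comprised 5 untreated and 5 dual ICI mice at 3wk (day 21), and 5 untreated, 5 anti-PD1, 4 anti-CTLA4 and 5 dual ICI mice at 5wk (day 35). The labels give the treatment but not the outcome. The study's text calls dual ICI mice 2, 3 and 4 at 5wk cured and mice 1 and 5 uncured, and this split is used with that source. All tumors came from 1 implanted cell line, and the RNA came from stripped peritoneum with or without nodules.

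CDX2 and CDX1 are homeobox transcription factors that specify intestinal epithelium, and CDX2 appears in stomach epithelium when the latter takes on an intestinal character (intestinal metaplasia). Their program includes structural genes of the brush border such as Vil1, which encodes the actin-bundling protein villin, and Cdh17, a cadherin of intestinal epithelium. It also includes digestive enzymes such as Mgam, the maltase-glucoamylase that releases glucose from starch. Gucy2c encodes guanylate cyclase C, the receptor through which the gut peptides guanylin and uroguanylin raise cyclic GMP. S100g encodes the vitamin D-regulated calcium buffer calbindin of the enterocyte, Stra6 the cell-surface receptor that takes up retinol from its plasma carrier, and Lgals4 the lectin galectin-4.

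Library totals ran from 25989217 to 31219650 counts. The libraries held epithelial and muscle RNA in very different proportions. The summed level of 16 general epithelial genes ran from 438.4 to 1829.8 CPM (read counts corrected for library size) in the 10 untreated libraries and from 6.2 to 25.3 CPM in the 3 cured libraries, while 10 skeletal muscle genes summed to 33545 to 179259 CPM in the untreated libraries and to 204559 to 235312 CPM in the cured ones. In bulk tissue, fewer tumor cells and less RNA per cell cannot be told apart. A further 3 libraries stood apart from their groups. Anti-PD1 mouse 5 had 18.0 CPM of the epithelial genes and 212537 CPM of the muscle genes, within the muscle range of the cured libraries and far below the other 4 anti-PD1 mice (1329.2 to 1793.2 CPM epithelial). Untreated 5wk mouse 2 had 543.0 CPM of epithelial genes against 1514.5 to 1829.8 CPM in the other 4, and dual ICI 3wk mouse 4 had the highest epithelial sum at 3wk, 1656.9 CPM. The study's text reports a cure in the anti-PD1 group without saying which mouse, so a cured mouse may be among the anti-PD1 libraries, and the 5 are kept together as labelled. The names of the 3wk and 5wk libraries carry separate series of identifiers, so that time and library series cannot be told apart.

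The promoters of 4 members are shown as a description, so that the enzyme gene Mgam can be set beside the CDX gene itself. Shared regulation of the members was not tested. RefSeq promoter windows (build GRCm38.p6) were used for 6 of the 9 members. Gucy2c and Cdh17 had no window, and Cdx1 was left out of the search. The 150 bases before the annotated start are printed 5′ to 3′ on the gene's strand, with capitals marking the CDX core letters TTTAT or their reverse complement ATAAA. The windows lie at chr6:40628681-40628830 (Mgam, plus strand), chrX:162964600-162964749 (S100g, minus strand), chr5:147307250-147307399 (Cdx2, minus strand) and chr1:74409234-74409383 (Vil1, plus strand).
Mgam: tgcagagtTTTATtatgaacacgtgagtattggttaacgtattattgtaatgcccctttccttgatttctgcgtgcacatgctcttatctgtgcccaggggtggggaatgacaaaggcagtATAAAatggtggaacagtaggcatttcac
S100g: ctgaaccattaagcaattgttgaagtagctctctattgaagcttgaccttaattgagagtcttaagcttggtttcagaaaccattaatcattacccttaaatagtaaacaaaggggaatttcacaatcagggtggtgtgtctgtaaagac
Cdx2: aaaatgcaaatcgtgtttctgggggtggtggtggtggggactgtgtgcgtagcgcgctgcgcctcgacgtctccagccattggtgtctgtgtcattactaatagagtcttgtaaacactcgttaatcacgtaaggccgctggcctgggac
Vil1: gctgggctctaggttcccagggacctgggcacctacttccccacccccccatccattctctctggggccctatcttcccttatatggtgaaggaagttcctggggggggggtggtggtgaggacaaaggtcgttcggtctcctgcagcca
Of the 4 stretches, that of Mgam held the CDX core, at -142 and -29 from the start. The copy at -29 lies within the letters TATAAA of a TATA box, so these overlapping matches cannot be read apart. The core was present in 24.1% of all 32851 windows cut to the same 150 bases, so a match is common. In the full windows of 300 bases, which reach past the start, it also occurred outside the printed stretches. It lay in Stra6 at -248, -244 and -235, in Mgam at 37 and in S100g at 2, there within the letters TATAAA. Of all full windows, 40.0% held it. All motifs were searched on both strands. The GATA letters AGATAA occurred in Mgam at -66 and in 5.65% of all such stretches, and the HNF4 letters CAAAGTCCA occurred in none of the 4 and in 0.271% of all. These are matches of letters in a short window and not binding sites.

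The receptor Gucy2c (chr6:136697284-136781765, minus strand, GRCm38) was plainly present in every tumor-bearing group. Its level in untreated mice at 5wk was 57.0, 12.9, 54.8, 42.0 and 57.4 CPM in mice 1 to 5, and at 3wk it was 27.1, 13.6, 31.3, 33.1 and 24.5 CPM. The 2 uncured dual ICI mice had 65.1 and 49.7 CPM. The 3 cured mice had 0.256, 0.0974 and 0.0969 CPM, from 2 to 5 counts each, so cured tissue was near the detection floor of 3 counts. Anti-PD1 mouse 5 had 0.310 CPM, close to the cured mice, whereas the other 4 anti-PD1 mice lay between 37.7 and 67.7 CPM.

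Mgam (chr6:40628831-40769123, plus strand), Stra6 (chr9:58063788-58153996, plus strand) and S100g (chrX:162961992-162964599, minus strand) kept a low but measurable level in cured tissue. Mgam averaged 91.4 ± 32.2 CPM (SD, n = 5) in untreated mice at 5wk and 1.70 ± 0.259 CPM (SD, n = 3) in cured mice, a ratio of 53.7. Stra6 averaged 71.8 ± 22 and 1.96 ± 0.659 CPM, a ratio of 36.7, and S100g 46.0 ± 14.5 and 0.812 ± 0.247 CPM, a ratio of 56.7. Stra6 overlaps Ccdc33 on the opposite strand, S100g overlaps Ctps2 and Vil1 overlaps Usp37, and the use of strand in counting is not given in the sources used here. Ccdc33 moved with Stra6, at 15.0 ± 5.15 CPM (SD, n = 5) in untreated and 0.152 ± 0.179 CPM (SD, n = 3) in cured tissue, whereas Ctps2 (32.6 and 15.8 CPM) and Usp37 (17.6 and 15.7 CPM) differed far less, and the part of the overlaps in these values was not tested.

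Among the transcription factors, Cdx2 (chr5:147300805-147307270, minus strand) carried nearly all of the CDX signal. Untreated mice at 5wk had 48.1, 14.8, 37.4, 41.6 and 39.6 CPM of Cdx2, and the 3 cured mice had 0.512, 0 and 0 CPM. Cdx1 never exceeded 1.23 CPM in any library. It was at 0 counts in the 3 cured mice and in anti-PD1 mouse 5. Its mean of 0.548 ± 0.440 CPM (SD, n = 5) in untreated mice at 5wk was 3.69 times the floor of 3 counts per library. That is a lower bound on its ratio over cured tissue. Cdx1 stayed below the filter on low counts in dual ICI against untreated at 3wk and in untreated 5wk against 3wk, where it had 1 to 31 counts per library, and it has no fitted value in these.

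The structural genes Cdh17 (chr4:11758147-11817895, plus strand) and Vil1 (chr1:74409376-74435559, plus strand) were also well above cured tissue in CPM. Cdh17 in untreated mice at 5wk was 197.6, 39.7, 184.1, 117.1 and 163.5 CPM, against 1.38, 0 and 0 CPM in cured mice. Vil1 ran from 28.3 to 108.2 CPM in untreated mice at 5wk and from 0.0969 to 1.08 CPM in cured mice. Lgals4 (chr7:28833854-28841708, plus strand) was the exception among the 9. It averaged only 4.62 ± 1.51 CPM (SD, n = 5) in untreated mice at 5wk and 1.98 ± 0.503 CPM (SD, n = 3) in cured tissue, a ratio of 2.33, and its lowest untreated value, 2.28 CPM, lay under the highest cured value, 2.42 CPM. For the other 8 members every untreated library at 5wk lay above every cured one, where 26.9% of all 15816 genes tested did so. As this contrast chose the members, that count is a description only.

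**Figure D1:**
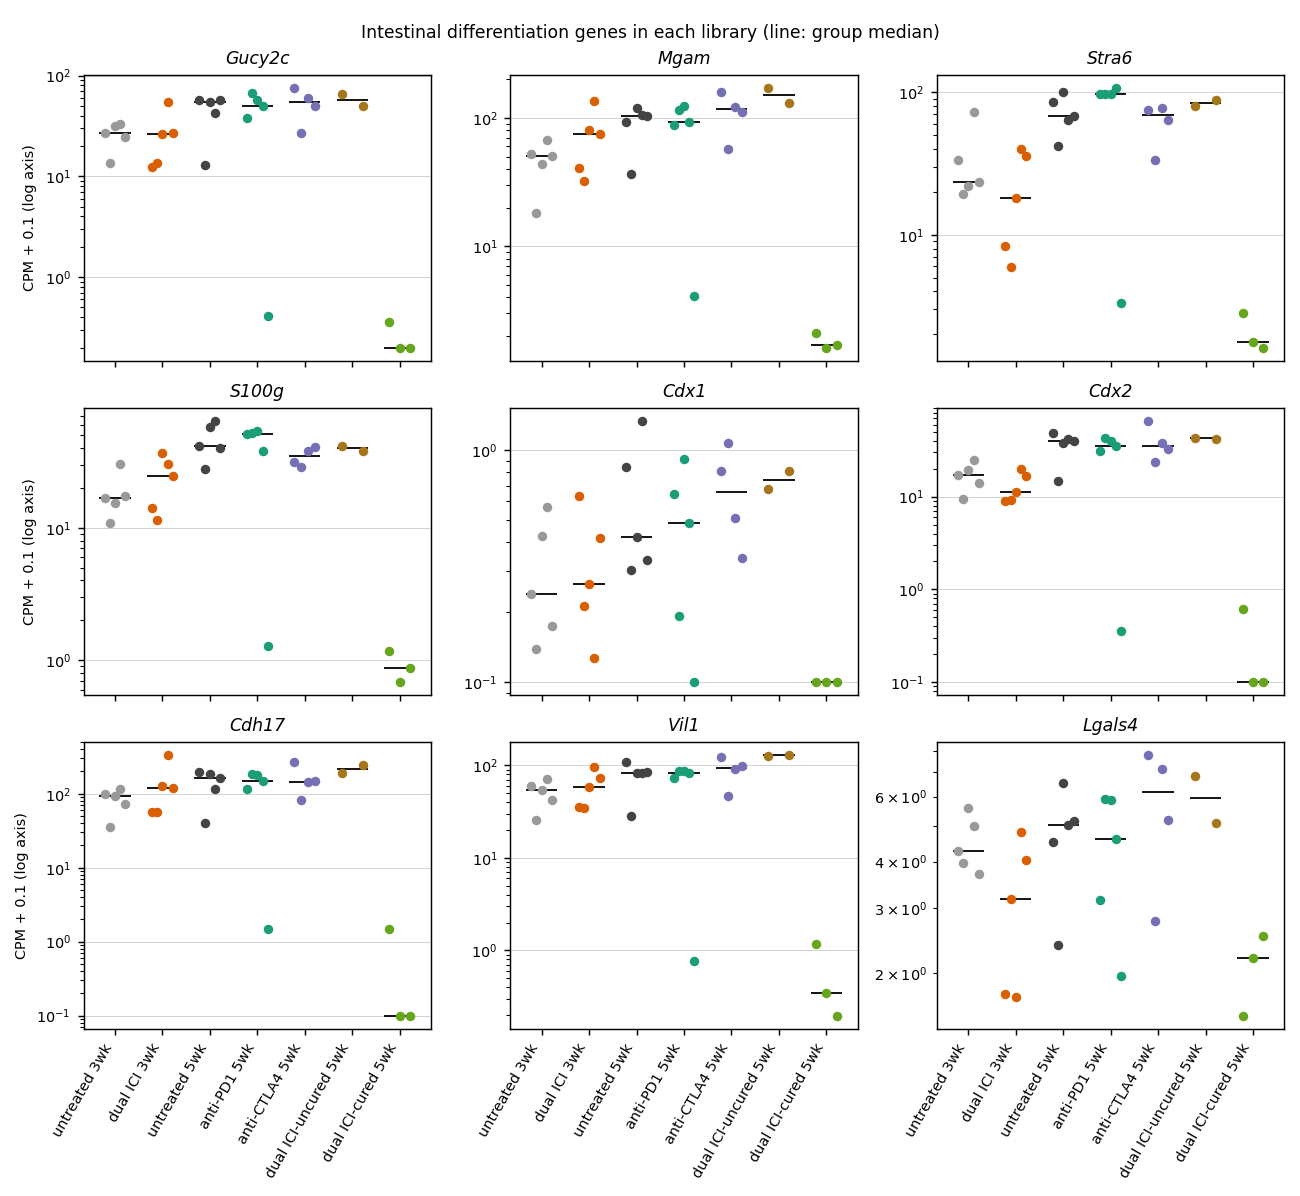
CPM plus 0.1 (log axis, separate range for each gene) of the 9 members in each of the 29 libraries, as points in the order of the mouse numbers, by group, with a line at the group median. The 3 cured libraries and anti-PD1 mouse 5 sit at the bottom for Gucy2c, Cdx2 and Vil1, and Lgals4 shows the narrowest range.

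Set on a scale per length of exon (CPM per kb, mean ± SD over the 10 untreated libraries), which allows genes to be compared, S100g led with 66.7 ± 38.1 CPM per kb, and 2.49% of all genes with a known length were at or above it. Cdh17 followed with 25.0 ± 12.6, Vil1 with 18.0 ± 7.55 and Cdx2 with 11.8 ± 6.10 CPM per kb. Stra6 (9.08 ± 4.94), Gucy2c (8.94 ± 4.26) and Mgam (7.92 ± 3.93 CPM per kb) followed. From Cdh17 down to Mgam, each mean lay within 1 SD of its neighbour in this order. That SD is between mice, and the genes share the same libraries, so it cannot tell whether neighbours differ. Cdh17 was above Vil1, and Vil1 above Cdx2, in every untreated library. From Cdx2 down to Mgam the order of neighbours varied between libraries. Lgals4 (1.95 ± 0.493) and Cdx1 (0.216 ± 0.208 CPM per kb) were last. S100g has a short transcript of 480 bases, so its place in this order rests on that length more than that of the others.

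On the same scale, the tumor-bearing tissue held partners of these genes from several lists. Among intestinal transcription factors the highest means were those of Klf5 (17.4 CPM per kb), Hnf4a (13.6) and Isx (9.91), the last an intestinal homeobox regulator of vitamin A handling. Among brush border genes they were Cdhr5 (23.9), a protocadherin that links microvilli, and Krt20 (23.7), a keratin of differentiated gut epithelium. The third, Anpep (19.6 CPM per kb), was at 83.7 ± 4.66 CPM (SD, n = 3) in cured tissue and at 58.7 ± 4.78 CPM (SD, n = 5) in untreated tissue at 5wk, unlike the members. Levels of enterocyte enzymes and carriers varied widely. Fabp1 (7.39), Dpp4 (6.61), Enpep (6.28) and Mep1a (4.39 CPM per kb) were near Mgam in this mean. Fabp1, however, averaged 0.392 CPM at 3wk and 7.78 CPM at 5wk. Dpp4 and Enpep, like Anpep, were higher in cured tissue (53.0 and 33.1 CPM) than in untreated tissue at 5wk (20.8 and 17.2 CPM). Others were low. Sis (sucrase-isomaltase) was at 0.193, Alpi (intestinal alkaline phosphatase) at 0.467, Lct (lactase) at 0.0474 and Slc15a1 (the peptide transporter) at 0.00705 CPM per kb, against 7.92 CPM per kb for Mgam.

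Stomach genes were present in the same tissue as the intestinal ones. Tff2 (35.3 CPM per kb), a trefoil peptide of gastric mucous cells, Muc1 (28.1) and Pgc (17.0), which encodes the pepsinogen progastricsin, led the 17 stomach genes in the table. Genes of acid-secreting parietal cells were near the limit of detection, with Atp4a at 0.0454 and Atp4b at 0.0147 CPM per kb, as was the surface mucin Muc5ac at 0.0337 CPM per kb. Of the goblet and Paneth genes, Spink4 (47.4), Agr2 (35) and Lyz1 (22.6 CPM per kb) were highest. Muc2, the main mucin of intestinal goblet cells, stood at 0.0964 CPM per kb, and Atoh1, the factor that starts the secretory lineage, at 0.0253. The enterocyte genes Fabp1, Dpp4, Enpep and Mep1a and the genes named for low levels here were chosen after their values were seen. Genes of exocrine pancreas and liver varied, with Ctrb1 at 0.0764 and Apoh at 0.737 CPM per kb, while Cela1 reached 33.4, Cyp2e1 27.6 and Ttr 5.4 CPM per kb. Ttr was at 8.99 ± 4.21 CPM (SD, n = 5) in untreated mice at 5wk and at 0 CPM in cured tissue.

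**Figure D2:**
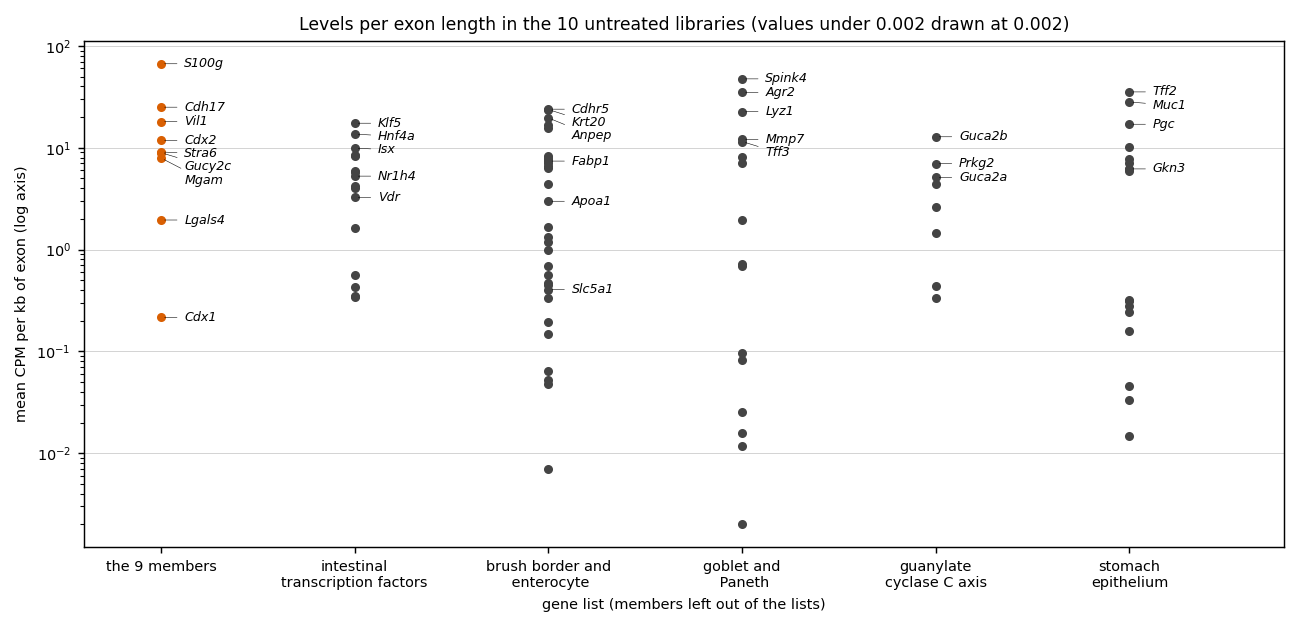
Mean CPM per kb of exon (log axis) over the 10 untreated libraries for the 9 members and for genes of 5 lists, each point a gene, with names for the members and for genes picked by the naming rule. S100g is highest among the members at 66.7 CPM per kb, and the stomach gene Tff2 (35.3) lies in the same range as Cdh17 (25.0).

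The first question with a test was whether dual ICI changed the members at 3wk. No member passed. By edgeR's quasi-likelihood test, with p-values adjusted over 15503 genes (Benjamini-Hochberg), 0 of the 8 members tested passed an adjusted p of 0.05 (range 0.587 to 0.984), 0 had an unadjusted p below 0.05 (10.7% of all genes) and DESeq2 called 0. Over all genes 0.574% were called, 73 higher and 16 lower in dual ICI. The 8 log2 fold changes ran from -0.64 to 0.75 with a median of 0.15, against 0.024 for all genes, and 5 of 8 were positive. In CPM the groups overlapped for all 8, where 3.18% of genes did not overlap.

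The signs differed among members at 3wk. Cdh17 was 57.1, 56.5, 126.0, 333.4 and 119.4 CPM in dual ICI mice 1 to 5 and 98.7, 35, 94.0, 117.4 and 71.7 CPM in untreated mice (log2 fold change 0.75, SE 0.48). Mgam was 41.0, 32.2, 81.1, 134.3 and 74.4 CPM against 52.5, 18.1, 43.4, 67.8 and 50.3 CPM (0.66, SE 0.40). Both groups overlapped for each gene, and dual ICI mouse 4 had the highest value of either. Without that mouse the changes were 0.11 (SE 0.35) for Cdh17 and 0.30 (SE 0.36) for Mgam. Stra6 pointed the other way, with 8.19, 5.82, 18.1, 39.6 and 35.3 CPM under dual ICI and 33.3, 19.1, 21.9, 72.4 and 23.5 CPM untreated (-0.64, SE 0.54), as did Lgals4 (-0.54, SE 0.30) and Cdx2 (-0.35, SE 0.29). Without untreated 3wk mouse 4 the Stra6 and Cdx2 changes were both -0.18 (SE 0.51 and 0.29), and without dual ICI mouse 4 they were -1.01 (SE 0.55) and -0.56 (SE 0.28). Gucy2c hardly differed in its mean, 26.8 ± 17.2 against 25.9 ± 7.67 CPM (SD, n = 5 each). Its log2 fold change of 0.06 (SE 0.39) became -0.40 (SE 0.30) without dual ICI mouse 4, and that of Vil1 went from 0.24 to -0.02.

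Since the amount of epithelium differed between mice, each member was also set against the 16 general epithelial genes, as log2 CPM minus the mean log2 CPM of those genes in the same library. On this scale Cdh17 was higher and Cdx2 lower in dual ICI than in untreated mice at 3wk, without overlap. Relative Cdh17 was 2.40, 2.46, 2.63, 3.58 and 2.58 under dual ICI and 2.36, 1.80, 2.29, 2.29 and 2.17 in untreated mice. The difference of means was 0.55 (exact permutation p = 0.00794, two-sided, which 5 against 5 mice cannot go below), although the nearest values, 2.40 and 2.36, lay close together. Relative Cdx2 was -0.28, -0.17, -0.85, -0.48 and -0.24 under dual ICI and -0.16, -0.08, 0.00, 0.06 and -0.17 in untreated mice, a difference of -0.34 (exact permutation p = 0.00794). Here the nearest values of the groups were equal to 2 decimals.

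Mgam (difference 0.62, exact permutation p = 0.0159, n = 5 each) and Vil1 (0.23, exact permutation p = 0.0238, n = 5 each) were also higher relative to epithelium under dual ICI. The values for Gucy2c (-0.08), S100g (0.35), Stra6 (-0.82) and Lgals4 (-0.62) did not pass. None of these differences survived adjustment over all 15503 genes (adjusted exact permutation p of 0.337 for Cdh17 and Cdx2). On this scale 2.35% of all genes did not overlap between the groups and 5.75% had an exact p below 0.05, against 2 and 4 of the 8 members. Cdx2 and Cdh17 kept their side of 0.05 without any single mouse, with differences of -0.39 to -0.22 and 0.33 to 0.63. An edgeR fit with the epithelial score as an offset gave 0.62 (SE 0.32) for Cdh17 and -0.32 (SE 0.25) for Cdx2, both with an adjusted p of 1, and with the median of the epithelial genes in place of their mean the Vil1 difference was 0.00.

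**Figure D3:**
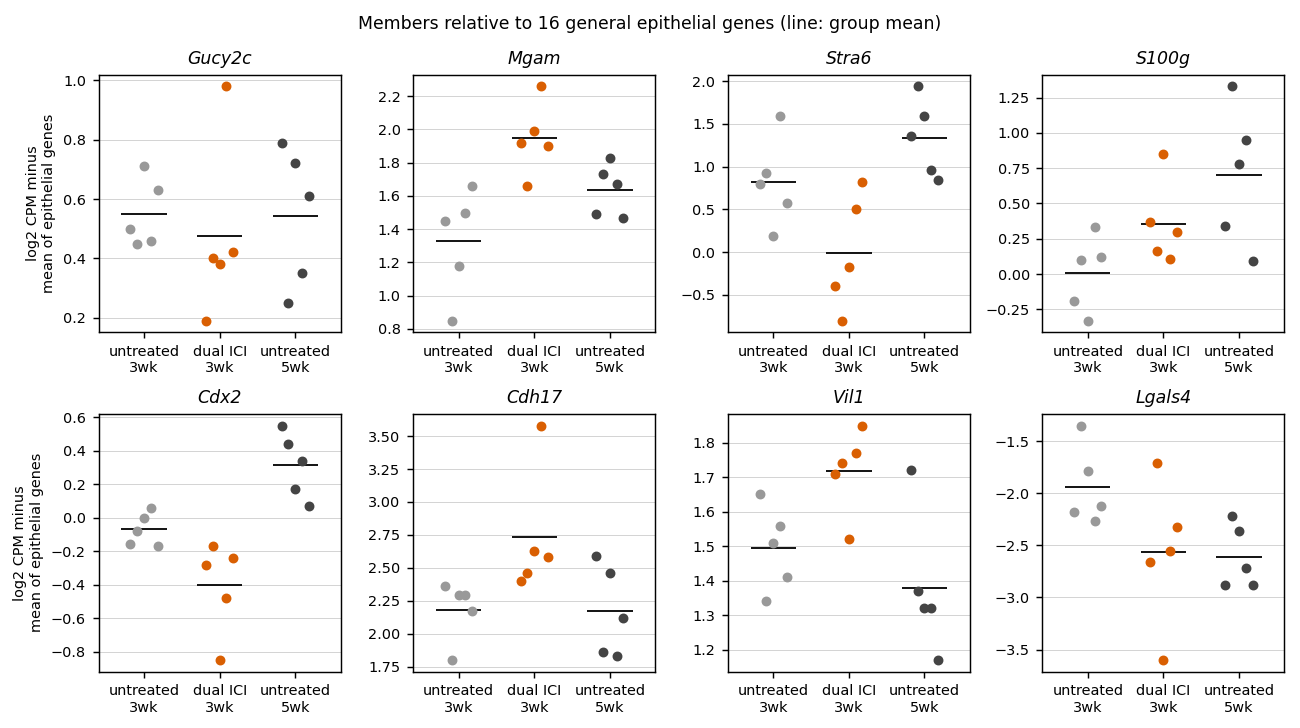
Log2 CPM of 8 members minus the mean log2 CPM of 16 general epithelial genes in each library (points in the order of the mouse numbers; line: group mean), for untreated and dual ICI mice at 3wk and untreated mice at 5wk. Cdx2 is lowest in dual ICI and highest in untreated 5wk mice, and Cdh17 is highest in dual ICI mouse 4 at 3.58.

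Of the genes that act with the members, few passed at 3wk. Guanylin (Guca2a) and uroguanylin (Guca2b), the ligands of the Gucy2c receptor, were at 0.769 ± 0.345 and 3.94 ± 1.18 CPM in dual ICI mice and at 1.46 ± 0.871 and 4.65 ± 2.46 CPM in untreated mice (SD, n = 5 each), and neither passed. None of the 8 genes of the guanylate cyclase C axis, 16 intestinal transcription factors, 25 brush border genes, 11 goblet and Paneth genes and 5 calcium and vitamin D genes tested was called. The goblet and Paneth genes had a median log2 fold change of -0.72, with 1 of 11 positive, and the 10 stomach genes one of -0.58, with 2 positive. Spink4, for example, was at 4.69 ± 2.46 CPM under dual ICI and 13.4 ± 2.73 CPM untreated (-1.49, SE 0.33, edgeR adjusted p = 0.0804). In the stomach list Gkn3 fell (gastrokine 3; 4.67 ± 1.68 to 0.950 ± 0.326 CPM, log2 fold change -2.29, edgeR adjusted p = 0.0176). In the retinol list Rbp4 fell, the plasma carrier that delivers retinol to the Stra6 receptor (17.8 ± 3.36 to 8.42 ± 1.55 CPM, log2 fold change -1.08, edgeR adjusted p = 0.0275). In cured tissue Rbp4 was at 12.8 ± 6.63 CPM and Gkn3 at 1.95 ± 0.447 CPM (SD, n = 3 each), both above their means under dual ICI at 3wk. The 6 adipocyte genes had a median log2 fold change of -0.86 at 3wk, with 0 positive and 0 called. The median was 0.09 for the muscle list and -0.25 for the mesothelial list. Their part in the Rbp4 values was not tested. T-cell genes rose in the same comparison, with Cd8b1 at a log2 fold change of 2.53, Cd8a at 2.31 and Cd3g at 1.82 (edgeR adjusted p of 0.0222, 0.0193 and 0.0222).

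Between 3wk and 5wk in untreated mice, S100g and Cdx2 rose, and the other 6 members tested did not pass. The untreated 5wk libraries were also part of the contrast that chose the members, so these calls are not independent of that choice. S100g went from 16.7, 10.7, 15.3, 30.1 and 17.3 CPM at 3wk to 41.5, 27.5, 57.4, 63.6 and 40.0 CPM at 5wk (log2 fold change 1.36, SE 0.28, edgeR adjusted p = 0.0155). The groups overlapped in 1 pair of mice, 30.1 against 27.5 CPM. Cdx2 went from 17.1, 9.45, 19.2, 25.0 and 14.1 CPM to 48.1, 14.8, 37.4, 41.6 and 39.6 CPM (log2 fold change 1.10, SE 0.30, edgeR adjusted p = 0.0421). Only untreated 5wk mouse 2 lay inside the 3wk range.

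In all, 2 of the 8 members tested were called, against 10.8% of 15604 genes (6.24% called higher), and 5 had an unadjusted p below 0.05 (30.1% of all genes). All 8 log2 fold changes were positive, with a median of 0.88, where the median of all genes was 0.022. Stra6 (1.08, SE 0.35), Mgam (0.98, SE 0.35), Gucy2c (0.79, SE 0.35), Cdh17 (0.75, SE 0.40) and Vil1 (0.61, SE 0.33) did not pass, with edgeR adjusted p of 0.0701 to 0.229, and Lgals4 was at 0.07 (SE 0.25), or -0.08 without untreated 5wk mouse 3. The count rests on the libraries used. Without untreated 5wk mouse 2, the one with little epithelial and much muscle RNA, 7 of 8 members were called, all but Lgals4, and 31.2% of all genes. DESeq2 called 4 members (18.7% of all genes), whereas a shared estimate of spread over all 29 libraries called 0 (13.4% of all genes). Of the other 9 mice left out in turn, all left S100g called, and all but untreated 3wk mouse 4 lost the call of Cdx2 (edgeR adjusted p of up to 0.102).

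The general epithelial genes moved with the members in this comparison, with a median log2 fold change of 0.80 over 16 genes, 15 of them positive and 2 called, Spint1 and Cldn3. Relative to them, Cdx2 was higher at 5wk, with 0.55, 0.44, 0.17, 0.34 and 0.07 against -0.16, -0.08, 0.00, 0.06 and -0.17 (difference 0.38, exact permutation p = 0.00794), without overlap, where 3.8% of all genes did not overlap. S100g differed by 0.69 (exact permutation p = 0.0397, n = 5 each) and Lgals4 by -0.67 (exact permutation p = 0.0159, n = 5 each). Gucy2c and Cdh17 each differed by -0.01, so in CPM they stood to the epithelial genes as at 3wk. None passed adjustment over all genes (adjusted exact permutation p of 0.204 for Cdx2, S100g and Lgals4), and 22.4% of all genes had an exact p below 0.05 on this scale. Without 1 mouse, S100g lost its exact p below 0.05 in 7 of 10 cases, whereas Cdx2 kept it in all 10 (0.32 to 0.44). With the median of the epithelial genes the differences were 0.20 for Cdx2 (exact permutation p = 0.0635) and 0.51 for S100g (exact permutation p = 0.0794). The offset fit gave 0.39 (SE 0.29) and 0.75 (SE 0.34), with adjusted p of 0.449 and 0.330.

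Several genes that work with the members rose as well. Both ligands of Gucy2c did, Guca2b from 4.65 ± 2.46 to 17.6 ± 9.85 CPM (SD, n = 5 each; log2 fold change 1.92, edgeR adjusted p = 0.0237) and Guca2a from 1.46 ± 0.871 to 4.62 ± 1.98 CPM (1.66, edgeR adjusted p = 0.0289). Prkg2, the cyclic GMP-dependent kinase of gut epithelium, went from 18.8 ± 9.64 to 56.0 ± 20.4 CPM (1.57, edgeR adjusted p = 0.0207). These were the 3 genes called of the 8 in this list, while the chloride channel gene Cftr (0.33, SE 0.42) did not pass. Of 16 intestinal transcription factors, Nr1h4, the bile acid receptor, was the one called (1.37, edgeR adjusted p = 0.0423).

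Of 27 brush border and enterocyte genes tested, 4 rose and 3 fell. The largest rises were those of Fabp1, a fatty acid carrier (0.392 ± 0.150 to 7.78 ± 7.57 CPM, log2 fold change 4.30, edgeR adjusted p = 0.00883), the glucose transporter Slc5a1 (2.55, edgeR adjusted p = 0.0277) and Apoa1 (2.35, edgeR adjusted p = 0.0381). The fourth was Ush1c (1.31, edgeR adjusted p = 0.0276), a scaffold between microvilli. The 3 that fell were the peptidases Dpp4, Anpep and Enpep (-1.60, -0.82 and -1.29; edgeR adjusted p of 0.0325, 0.0150 and 0.00303), all of which also stood at 33.1 to 83.7 CPM in cured tissue. Neither calcium nor vitamin D genes were called, with Vdr, the vitamin D receptor that regulates S100g, at 15.6 ± 6.06 and 21.3 ± 7.82 CPM.

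Secretory and stomach genes were among those that rose. Tff3 went from 0.764 ± 0.447 to 10.6 ± 8.17 CPM (log2 fold change 3.78, edgeR adjusted p = 0.00633) and Tff2 from 3.73 ± 1.88 to 37.4 ± 26.7 CPM (3.32, edgeR adjusted p = 0.00633). Mmp7, a protease of Paneth cells, rose (2.58, edgeR adjusted p = 0.0140), as did Spink4 (1.25, edgeR adjusted p = 0.0287) and Muc1 (1.20, edgeR adjusted p = 0.0386). The Paneth lysozyme gene Lyz1 fell (-2.17, edgeR adjusted p = 0.0272), and it was highest in cured tissue (75.8 ± 7.77 CPM, SD, n = 3). Of the lists for other cell types, 1 of 10 muscle genes fell, Myh2 (-2.08), with a list median of -0.24 and 3 positive. In the mesothelial list 1 of 6 fell, Gpm6a (-1.36; median -0.47, 1 positive), in the adipocyte list 1 of 6, Plin1 (-1.33; median -0.47, 0 positive), and in the immune list 1 of 9, Ptprc (-0.82; median -0.33, 3 positive), with edgeR adjusted p of 0.00377 to 0.0312 for the 4 genes. Their part in the members' values was not tested.

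**Figure D4:**
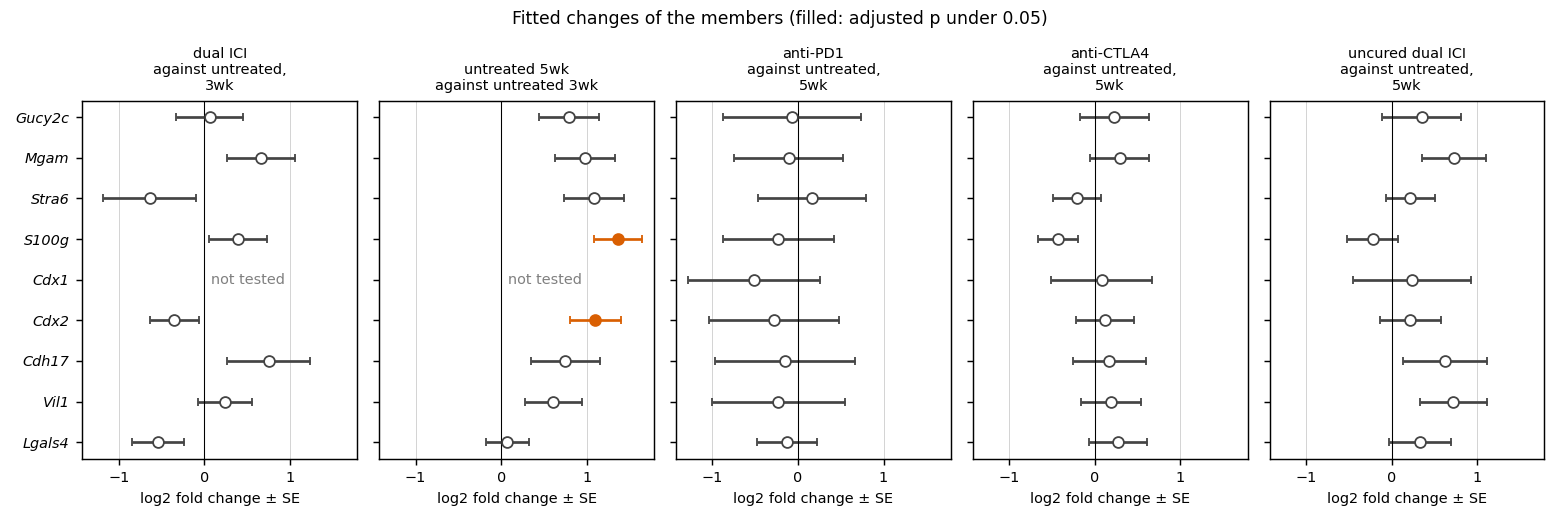
Log2 fold change ± SE (edgeR) of each member in 5 comparisons, with filled points where the adjusted p was under 0.05. S100g (1.36) and Cdx2 (1.10) are filled, both in untreated 5wk against untreated 3wk, and Cdx1 has no fitted value in the first 2 comparisons.

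At 5wk no member was called under either antibody alone, in comparisons that share the 5 untreated libraries with the contrast that chose the members. This does not show that the members were unchanged. Under anti-PD1, 0 of 9 members and 0 of 15640 genes (0%) passed edgeR's test, with 0 members and 205 genes (1.31%) at an unadjusted p below 0.05 and 0 genes called by DESeq2. The member log2 fold changes lay between -0.51 and 0.16 with standard errors of 0.35 to 0.82. Without mouse 5 the errors were 0.21 to 0.65 and the changes lay between -0.24 (Cdx1) and 0.47 (Stra6), with 8 of 9 positive, and again 0 members were called. Stra6 in the other 4 mice was 96.5, 97.8, 96.6 and 107.7 CPM, close to one another and above 4 of the 5 untreated mice (84.6, 42.0, 100.3, 64.0 and 67.9 CPM), and in mouse 5 it was 3.20 CPM. Relative to epithelium, 1 of 9 members had an exact p below 0.05 (0.965% of all genes), Mgam, with a difference of 0.39 (exact permutation p = 0.0238, adjusted over all genes 0.795). Relative Mgam was 2.75 in mouse 5, where the epithelial sum was 18.0 CPM, and 1.79, 1.84, 1.83 and 1.92 in the other 4. In untreated mice it was 1.49, 1.73, 1.83, 1.67 and 1.47.

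Under anti-CTLA4, 0 of 9 members and 0 of 15781 genes (0%) passed edgeR's test, with 0 members and 128 genes (0.811%) at an unadjusted p below 0.05 and 0 called by DESeq2. The largest member differences were those of S100g, 31.3, 28.5, 37.8 and 40.4 CPM against 41.5, 27.5, 57.4, 63.6 and 40.0 CPM untreated (-0.43, SE 0.23), and Mgam (0.29, SE 0.34). Anti-CTLA4 mouse 2 was the lowest of its group for 8 of the 9 members and had the least epithelial RNA (936.3 CPM). Relative to epithelium, 0 of 9 members had an exact p below 0.05 (0.805% of all genes).

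In the 2 uncured dual ICI mice, 8 of 9 member log2 fold changes against untreated mice were positive and that of S100g was -0.22 (SE 0.30), and none passed. This comparison, too, shares the 5 untreated libraries with the contrast that chose the members. Vil1 was 126.9 and 129.5 CPM in them, above all 5 untreated mice (28.3 to 108.2 CPM), and Mgam was 172.4 and 131.6 CPM, above the untreated range of 36.2 to 118.8 CPM. These were 2 of 9 members, and 9.22% of 16156 genes lay above all untreated mice in the same way. Neither passed (log2 fold change 0.72, SE 0.39, for Vil1 and 0.73, SE 0.37, for Mgam; edgeR adjusted p = 0.734 for both). By edgeR, 0 of 9 members and 0 genes (0%) passed, with 0 members and 787 genes (4.87%) at an unadjusted p below 0.05, and DESeq2 called 17 genes and 0 members. The summed epithelial level was 2023.2 and 2151.4 CPM in the 2 mice, above all untreated mice as well. The difference between the dual ICI effect in uncured mice at 5wk and that at 3wk was tested directly and passed for 0 of 9 members (log2 differences of -0.59 for S100g to 0.89 for Stra6 and Lgals4, edgeR adjusted p of 0.707 to 0.979), with 0 members at an unadjusted p below 0.05 (6.35% of all genes) and 0 members called by DESeq2. Over all 16542 genes 0 were called by edgeR (0%).

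How alike the members were is described by Spearman's rho of log2 CPM over the 24 libraries outside the 5wk dual ICI group, which share differences in epithelial content and time. Over the pairs of all 9 members rho ran from 0.25 to 0.933, with a median of 0.751. The pairs of Cdx1 ran from 0.25, with Cdh17 and with Lgals4, to 0.564 with Cdx2. Lgals4 with the remaining members gave 0.546 to 0.857. Without Cdx1 and Lgals4, the 7 members gave rho of 0.712 to 0.933 over their pairs, with Cdh17 and Vil1 the most alike. Within the 10 3wk libraries the median was 0.794 (0.588 to 0.988) and within the 14 5wk libraries 0.635 (0.310 to 0.859), or 0.544 without anti-PD1 mouse 5. Each of the 7 also followed the epithelial score, from 0.784 for Stra6 to 0.932 for Gucy2c.

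The genes most like each member outside the list differed from member to member. Gucy2c was most like Tmprss2 (0.979), Capn5 and Slc17a9 (both 0.977), Cdx2 most like Epn3 (0.986), B4galnt1 (0.984) and Hip1r (0.983), Cdh17 most like Aim1 (0.977), Eml4 (0.975) and Pls1 (0.971), and Vil1 most like Gpa33 (0.973), Rps6ka1 (0.962) and Coro2a (0.957). Mgam was closest to Igsf5 (0.970), the stomach-type claudin Cldn18 (0.964) and Mgat4a (0.953). Stra6 was closest to Anxa8 (0.956), Rbpms (0.943) and Trpm6 (0.938), and S100g to Cd14 (0.937) and Tinag (0.925). Cdx1 (Limd2, 0.815; Pigx, 0.795; Hnrnpa0, 0.788) and Lgals4 (Ndor1, 0.905; Mast1 and Hdac8, both 0.888) had the weakest likenesses and the lowest counts. All are descriptions over 24 libraries, without a test.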

How the data were processed

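Bulk RNA-seq counts of 29 libraries were analysed. The authors deposited raw counts per gene symbol. Per the labels and the submitters' processing notes, reads went through STAR 2.7.0f and featureCounts 1.6.4 on mm10, while the study's methods name another aligner version and counter. The annotation and strand setting are not given in the sources used here. CPM used trimmed mean of M values (TMM) sizes over all libraries. Tests were edgeR 4.0.16 quasi-likelihood fits (limma 3.58.1, R 4.3.3) restricted to the groups compared, after filterByExpr. P-values were adjusted over every gene tested (Benjamini-Hochberg), and DESeq2 1.42.0 was an alternative. The scripts were tested on simulated data. Exon lengths and positions came from GENCODE vM21 (GRCm38), to which 23384 symbols (95.8%) matched, and promoters from RefSeq. For the relative scale a prior count of 2 was used. Its p-values were planned with adjustment over members and comparisons, under which 0 of the 43 tests passed 0.05, and are given unadjusted and adjusted over all genes, under which 0 passed either. That adjustment and the offset fit were chosen after seeing the data. Replicate numbers did not pair the mice: deviations of same-numbered libraries correlated from -0.70 to 0.68 over 21 pairs, 8 above 0.1. Named genes were the members, the 3 most changed called genes and the 3 highest per-length genes of each list, the Gucy2c ligands, and the 3 genes most like each member with a mean of at least 1 CPM. Cftr, Ush1c, Dpp4 and Enpep fall outside this rule and were named after their values were seen. A gene that the rule names is not reported here. Members and lists were chosen with earlier results of these data known. Each library is 1 mouse, and p-values judge differences between groups against the spread between mice. Floors cover counting error only. Alternatives were other scaling, filters, fits, a replicate block and leaving out each mouse.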

Additional observations from a re-analysis of the deposited data

Results flagged for a closer look

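Over 54 combinations of member and treatment group, 5 values, from 3 libraries, lay far from the rest of their group by Dixon's criterion, where chance flags about 1 in 20. Of these, 3 were from anti-PD1 mouse 5, with Stra6 at 3.20 CPM, Cdx2 at 0.258 CPM and Vil1 at 0.671 CPM, the lowest of its group each time. That library also had the lowest epithelial and highest muscle levels of its group, and their part in these values was not tested. Stra6 in untreated 3wk mouse 4 was the highest of its group at 72.4 CPM, against 19.1 to 33.3 CPM in the other 4 mice. Cdh17 in dual ICI 3wk mouse 4 was the highest of its group at 333.4 CPM, against 56.5 to 126.0 CPM in the others.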

How the results depend on the processing

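Another scaling (RLE), no filter and a filter of at least 10 counts in every library changed no call or direction of a member tested under them, and nor did a prior count of 0.5 on the relative scale. Members under the stricter filter have no value there. DESeq2 called 502 genes in dual ICI against untreated at 3wk (89 by edgeR), 3168 with 4 members between untreated 5wk and 3wk (1687 with 2), 17 in uncured mice and 1 for the difference between times (0 and 0 by edgeR). One fit over all 29 libraries called 0 members between 3wk and 5wk. Leaving out each mouse gave 6 to 119 genes at 3wk, and 654 to 4915 genes and 1 to 7 members between 3wk and 5wk, the latter without untreated 5wk mouse 2.

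The replicate block, with numbers that do not pair the mice, called 209 genes in dual ICI against untreated, 3wk, and 4 members between 3wk and 5wk (11.4% of all genes). It reversed small member changes without a call: Gucy2c at 3wk (-0.10), Stra6 under anti-PD1 (-0.15), Cdx1 under anti-CTLA4 (-0.04), Gucy2c and Cdx2 in uncured mice (-0.01 and -0.04) and Cdh17 in the difference between times (0.00). On the relative scale, 8 of 43 exact p-values were below 0.05 and 2 with the offset fit, which gave 0.01 for Cdh17 and 0.00 for Gucy2c over time. With the median of the epithelial genes, Vil1 at 3wk was 0.00.

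Leaving out 1 mouse reversed member changes that were not called: at 3wk Gucy2c (-0.40 to 0.24) and Vil1 (-0.02 to 0.39); over time Lgals4 (-0.08 to 0.23) and, relative to epithelium, Cdh17 (-0.12 to 0.07) and Gucy2c (-0.07 to 0.07). Under anti-PD1 these were Gucy2c (-0.31 to 0.24), Mgam (-0.31 to 0.19), S100g (-0.37 to 0.07), Cdx2 (-0.48 to 0.03), Cdh17 (-0.39 to 0.16), Vil1 (-0.44 to 0.08) and Lgals4 (-0.30 to 0.04). Under anti-CTLA4 they were Cdx1 (-0.26 to 0.58), Cdx2 (-0.23 to 0.30), Cdh17 (-0.19 to 0.39), Gucy2c (0.00 to 0.45) and Vil1 (-0.01 to 0.41). In the difference between times they were Cdh17 (-0.36 to 0.51), Mgam (-0.13 to 0.43) and Cdx1 (-0.36 to 0.71). The cause of these changes was not tested. Cdx1, with at most 31 counts per library, is limited by depth.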
